A study of Mus musculus with 14 samples.

Results

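The genes described here are 48 ligands, antagonists, receptors, Smads, Smad ubiquitin ligases and Id genes of the BMP and TGF-beta pathways, with the matrix gene Tgfbi. They were chosen by name, with earlier results of these data known. Each was read from its brightest probe set, the one with the highest mean signal over 14 Affymetrix arrays. Of 18193 genes named by at least 1 probe set, 11790 reached a signal of 200 on at least 1 array and were tested, and these held 41 of the 48. Bmp3 was named by no probe set in the tables used and is not analysed here. Bmp7, Gdf5, Nog, Chrd, Acvr2b and Bmpr1b stayed under 200 on every array, so no difference was tested for them.

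Total RNA came from 1 tumour labelled rhabdomyosarcoma and 12 osteosarcomas, all arisen in p53+/- mice, which carry 1 intact copy of the p53 tumour suppressor gene. The control was 1 array of mc3T3, an untreated, non-tumorigenic mouse osteoblast line grown in alpha-MEM with serum. The labels used here give no strain, sex or age of the mice, nor whether each tumour came from its own animal. What the p-values measure is thus the spread among these particular samples, which may in part be technical. Each of the 2 comparisons sets 12 osteosarcomas against a lone array, which the test assumes to vary as an osteosarcoma does, and both comparisons share the osteosarcomas. A permutation of 1 array among 13 cannot go below a share of 0.0769, so the p-values rest on the model fitted across all genes.

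Bone morphogenetic proteins (BMPs), growth and differentiation factors (GDFs), activins and TGF-betas are secreted dimers that bind pairs of type I and type II serine/threonine kinase receptors. BMP receptors phosphorylate Smad1 and Smad5, while activin and TGF-beta receptors phosphorylate Smad2 and Smad3; either set enters the nucleus with Smad4. Id genes and the inhibitory Smads, Smad6 and Smad7, are well-known targets, and secreted antagonists such as noggin, gremlin and follistatin hold ligands away from their receptors. In bone, BMPs drive osteoblast formation, and TGF-beta stored in the matrix is released when osteoclasts resorb it.

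The arrays had median signals of 67.0 to 111.1, and 33.8% to 40.3% of their probe sets reached 200. The ratio of 3' over 5' beta-actin signal, higher where RNA is degraded, was 1.24 in the tumour labelled rhabdomyosarcoma, 1.42 to 2.13 in the osteosarcomas and 1.32 in the mc3T3 line. The samples also differed in markers of other cell types. The summed signal of 10 macrophage markers was 161709 in the tumour labelled rhabdomyosarcoma, 64414 to 153619 in the osteosarcomas and 729.7 in mc3T3, where 9 of the 10 were under 200. The summed signal of 10 endothelial markers was 8922 in the tumour labelled rhabdomyosarcoma, 5456 to 17149 in the osteosarcomas and 345.4 in mc3T3, where all 10 were under 200. For 8 osteoclast markers the sums were 3250 in the tumour labelled rhabdomyosarcoma, 86543 to 183490 in the osteosarcomas and 6721 in mc3T3. Among the defining markers of the labelled types, the osteoblast genes Sp7 and Alpl had signals of 1515 and 1550 in mc3T3, where bone sialoprotein (Ibsp) stood at 37.4. The muscle genes Myod1, Myog and Des had signals of 39.4, 65.9 and 88.6 in the tumour labelled rhabdomyosarcoma. In it 8 of 11 skeletal muscle markers were under 200, and the sum of the 11 was 1551. That sum was 1100 to 276654 in the osteosarcomas, with 276654 in osteosarcoma 6 and 159050 in osteosarcoma 9. Osteosarcomas 6 and 9 were left out together in 1 of the alternative settings. In such bulk samples, fewer cells of a type and less RNA per cell cannot be told apart.

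**Figure D1:**
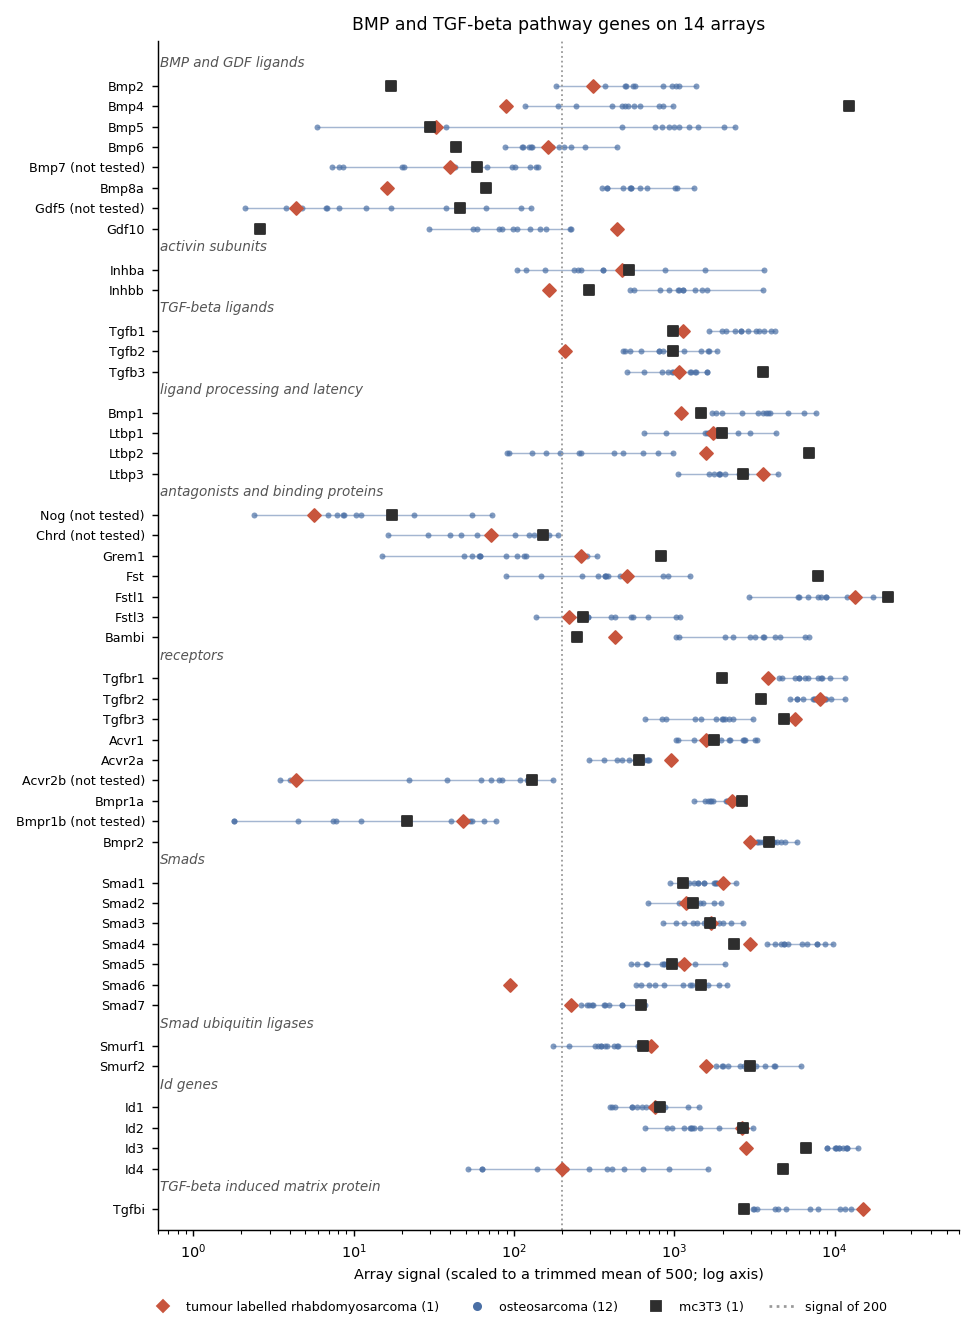
Signal of the 47 measured pathway genes on 14 arrays, grouped by role; the horizontal axis is the array signal on a log scale, diamonds are the tumour labelled rhabdomyosarcoma, circles the 12 osteosarcomas, squares mc3T3, and the dotted line a signal of 200. The mc3T3 square lies outside the osteosarcoma range for 22 of the 41 genes tested and the diamond for 19 of 41.

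The first comparison asks how the osteosarcomas differed from cultured osteoblasts, the control named in the study design. The osteosarcomas had higher Bmp2, Bmp8a, Gdf10, Tgfb1, Bambi and Tgfbr1, and lower Bmp4, Tgfb3, Ltbp2, Grem1 and Fst, than mc3T3. Of these 11 genes, 10 encode a secreted protein or the pseudoreceptor Bambi, and 1, Tgfbr1, encodes a signalling receptor. Tested were 6 BMP and GDF ligands, 2 activin subunits, 3 TGF-beta ligands and 4 ligand processing and latency genes. So were 5 antagonists and binding proteins, among them Bambi, and 7 receptors. Whether the share called differed between roles was not tested. Among the 13 Smads, Smad ubiquitin ligases and Id genes, limma called 0, with 3 at an unadjusted p under 0.05 (Smad4, Id3 and Id4). A call needed an adjusted p under 0.05 (limma, two-sided, Benjamini-Hochberg over 11790 genes) and a difference of at least 1 in log2(signal + 30). The added 30 makes differences of low signals look smaller than they are. Of the 41 genes, 11 were called (26.8%), against 13.2% of all genes tested. By direction, 6 were higher, where 8.63% of all genes were, and 5 were lower, where 4.56% were. Their median difference was -0.08, against -0.02 over all genes. The mc3T3 array lay outside the osteosarcoma range for 22 of 41 (53.7%), against 42.6% of all genes. The macrophage, endothelial and osteoclast marker sums given above also differed between the osteosarcomas and mc3T3. So did the sums of 4 adipocyte markers, 16634 to 66958 in the osteosarcomas against 37.8 in mc3T3, and of 7 smooth muscle and pericyte markers, 3451 to 41218 in the osteosarcomas against 78392 in mc3T3. Most of that mc3T3 sum was Acta2, at 61899, and the list was mixed. Of its 6 markers tested, 2 had positive differences. Among them Rgs5 had 937.3 to 17212 in the osteosarcomas, against 20.8 in mc3T3. The osteoblast sum was 147502 to 215149 in the osteosarcomas, against 127471 in mc3T3. In mc3T3 most of it was Col1a1 and Col1a2, at 62259 and 61961, and 4 of the 8 markers were under 200. Of the 8, 5 were called higher in the osteosarcomas and 0 lower. The part of these cell types in the differences was not tested.

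**Figure D2:**
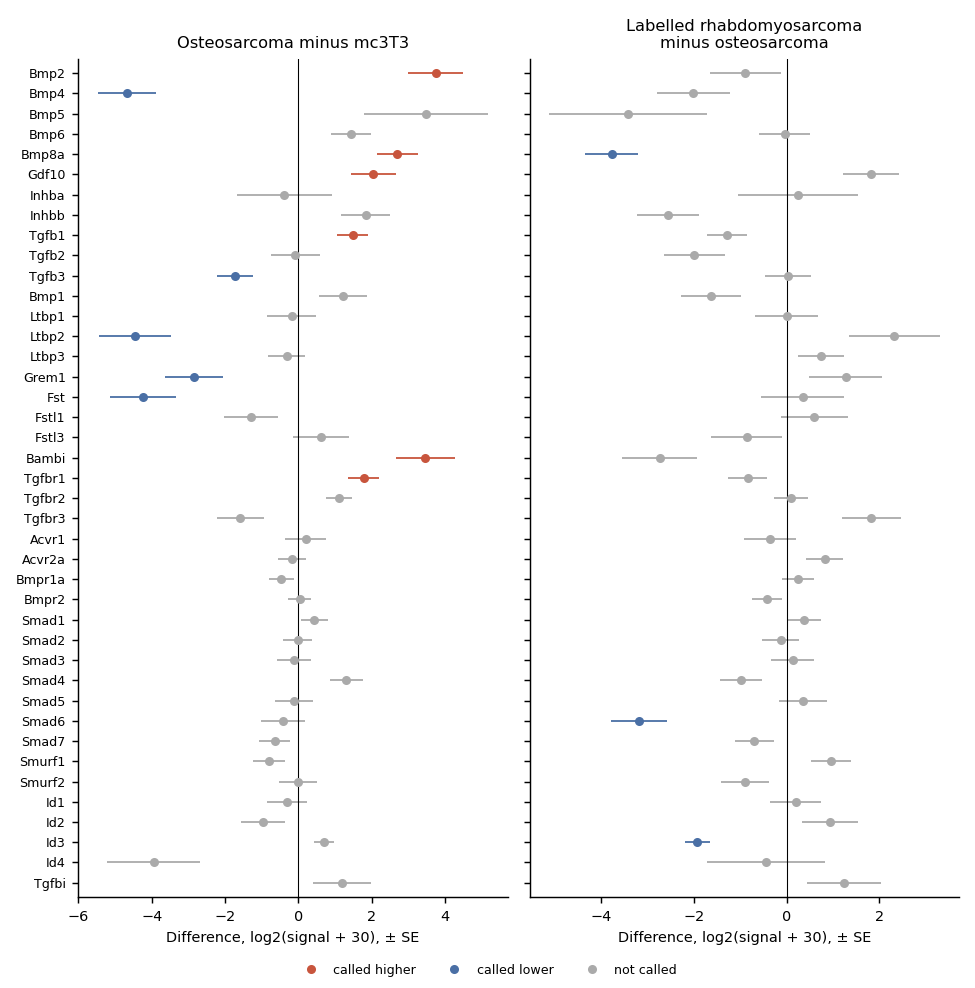
Differences of the 41 genes tested, with standard errors, on the log2(signal + 30) scale, for osteosarcoma minus mc3T3 (left) and for the tumour labelled rhabdomyosarcoma minus osteosarcoma (right). Red points were called higher (6 left, 0 right), blue points lower (5 left, 3 right) and grey points not called.

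Among the BMP and GDF ligands, 4 of 6 tested were called, 3 of them higher. Bmp2, which induces bone formation, had signals of 181.8 to 1376 in the osteosarcomas (median 558.6), against 17.1 in mc3T3. All 12 osteosarcomas lay above mc3T3, with osteosarcoma 6 lowest and osteosarcoma 11 highest. On the log2 scale the tumours were higher by 3.74 ± 0.76 (difference ± SE, as throughout; adjusted p = 0.00401). Bmp4, a close relative of Bmp2 with much the same receptors, went the other way: its signal was 116.9 to 976.3 in the osteosarcomas (median 503.3), against 12298 in mc3T3. No osteosarcoma came near the mc3T3 signal, and the difference was -4.68 ± 0.79 (adjusted p = 0.0011). The mean signal of Bmp4 was 520.3 ± 265 in the osteosarcomas (SD, n = 12), and the mc3T3 signal was 23.6-fold that mean.

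Bmp8a, a BMP known for its part in spermatogenesis, had signals of 354.4 to 1328 in the osteosarcomas (median 536.9), against 67.2 in mc3T3. The groups did not overlap, and the difference was 2.70 ± 0.57 (adjusted p = 0.00559). Gdf10, also called BMP3b, gave 29.7 to 227.7 in the osteosarcomas (median 101.7), against 2.6 in mc3T3. Most of these Gdf10 signals were under 200, where signal cannot be told from background without detection calls. Its difference of 2.04 ± 0.61 (adjusted p = 0.0393) was also the call that moved most easily: the adjusted p was 0.0503 without osteosarcoma 2, 0.053 without osteosarcoma 3, 0.052 without osteosarcoma 9 and 0.0504 without osteosarcoma 12. Bmp5 and Bmp6, the other ligands tested, had differences of 3.48 ± 1.70 and 1.43 ± 0.55 (adjusted p = 0.202 and 0.104). The untested Bmp7 and Gdf5 reached at most 141.6 and 127.6 in the osteosarcomas, against 59.2 and 46.3 in mc3T3.

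Of the 3 TGF-beta ligands, 1 rose, 1 fell and 1 was not called. Tgfb1, the form stored in large amounts in bone matrix, had signals of 1652 to 4224 in the osteosarcomas (median 2750), against 978 in mc3T3. Every osteosarcoma was above mc3T3, with a difference of 1.48 ± 0.43 (adjusted p = 0.0338). Tgfb3 gave 507.7 to 1595 in the osteosarcomas (median 1116), against 3567 in mc3T3. Here every osteosarcoma was below mc3T3, and the difference was -1.73 ± 0.50 (adjusted p = 0.032). Tgfb2 had 481.8 to 1857 in the osteosarcomas (median 827.4), against 976.5 in mc3T3, which lay inside their range, and a difference of -0.08 ± 0.66. The activin subunits Inhba and Inhbb had differences of -0.38 ± 1.30 and 1.83 ± 0.67, neither called (adjusted p = 0.882 and 0.0889). Inhbb was above mc3T3 in 12 of 12 osteosarcomas, and its adjusted p was 0.043 without osteosarcoma 10, which had the highest signal. A second Inhbb probe set gave 1.10.

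Latent TGF-beta binding proteins tether TGF-beta to the matrix, and Bmp1 is a protease that cleaves chordin and procollagen. Ltbp2, a matrix protein of that family that does not itself bind latent TGF-beta, had signals of 91.2 to 981.1 in the osteosarcomas (median 258.8), against 6962 in mc3T3. The highest osteosarcoma, number 1, was still far below mc3T3, and the difference was -4.46 ± 0.98 (adjusted p = 0.00692). For Ltbp1 and Ltbp3 the mc3T3 array lay inside the osteosarcoma range, with differences of -0.18 and -0.32, and Bmp1 had 1.21 ± 0.65 (adjusted p = 0.251).

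Antagonists moved in both directions. Fst encodes follistatin, which binds activins, and had signals of 89.8 to 1254 in the osteosarcomas (median 373.8), against 7927 in mc3T3. The groups were well apart, the difference was -4.23 ± 0.90 (adjusted p = 0.00578), and a second Fst probe set gave -4.64. Grem1 encodes gremlin, which binds BMP2 and BMP4, and had 15.1 to 331.5 in the osteosarcomas (median 75.4), against 827.8 in mc3T3. All 12 osteosarcomas were below mc3T3, and the difference was -2.84 ± 0.79 (adjusted p = 0.0273). Bambi, a membrane protein that resembles a type I receptor without its kinase and dampens signalling, had 1030 to 6956 in the osteosarcomas (median 3371), against 248.2 in mc3T3. Every osteosarcoma was higher, and the difference was 3.46 ± 0.81 (adjusted p = 0.0109). The follistatin-like genes Fstl1 and Fstl3 had differences of -1.29 ± 0.73 and 0.61 ± 0.76, neither called. The classical BMP antagonists noggin (Nog) and chordin (Chrd) stayed low on every array: Nog reached at most 73.1 in the osteosarcomas, against 17.4 in mc3T3, and Chrd at most 187.9 in the osteosarcomas, against 152.8 in mc3T3.

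**Figure D3:**
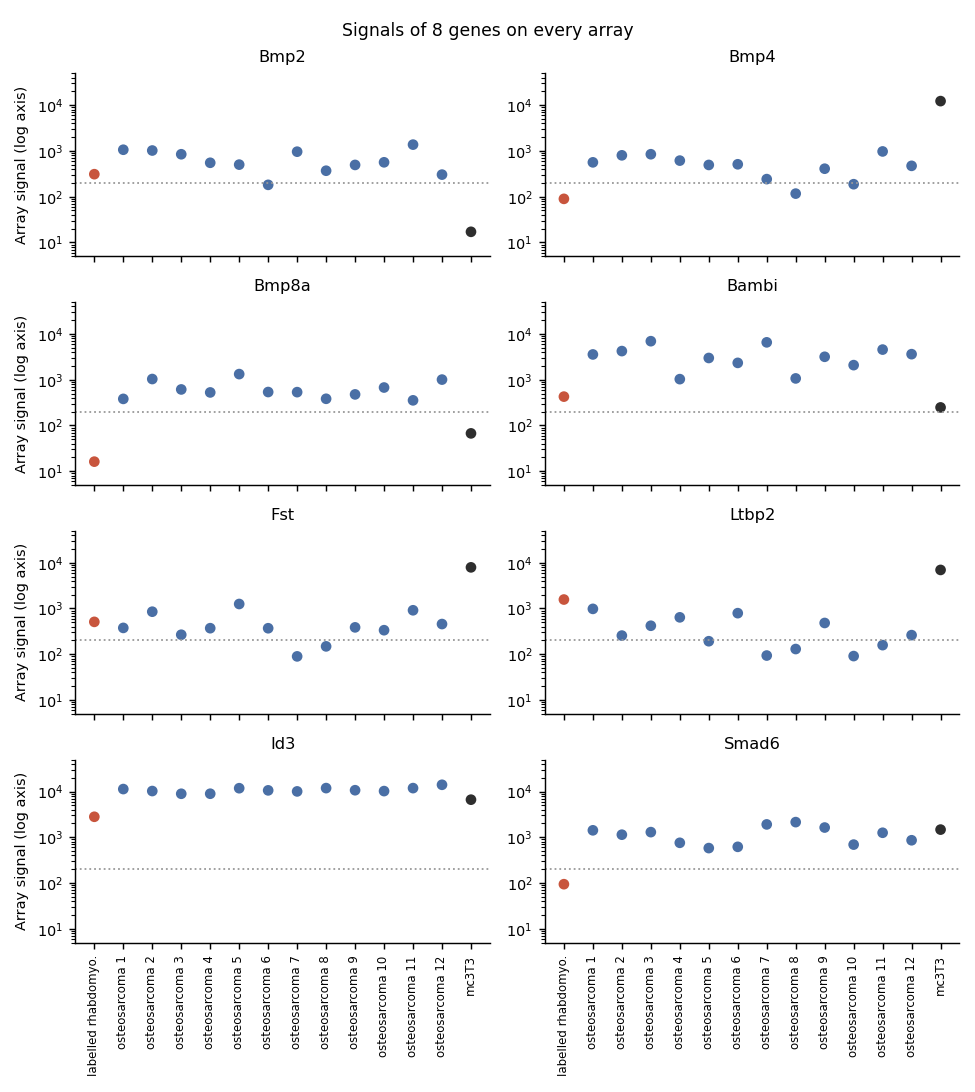
Signals of Bmp2, Bmp4, Bmp8a, Bambi, Fst, Ltbp2, Id3 and Smad6 on each array, on a log axis, with the tumour labelled rhabdomyosarcoma in red, the 12 osteosarcomas in blue, mc3T3 in black and a dotted line at 200. Bmp4 is at 12298 in mc3T3 and at most 976.3 in any osteosarcoma, while Id3 lies between 8924 and 14027 in all 12 osteosarcomas.

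Of the 7 receptors tested, 1 passed. Tgfbr1, the type I TGF-beta receptor, had signals of 4478 to 11657 in the osteosarcomas (median 6674), against 1982 in mc3T3. All 12 osteosarcomas were above mc3T3, with a difference of 1.78 ± 0.42 (adjusted p = 0.0113), and its other probe sets gave 1.74 and 1.20. Its type II partner Tgfbr2 was also above mc3T3 in 12 of 12 osteosarcomas, with 5261 to 11566 against 3489 in mc3T3. That difference, 1.10 ± 0.36, missed the threshold (adjusted p = 0.0608) and had an adjusted p of 0.0443 without osteosarcoma 11 and 0.0483 without osteosarcoma 12. Another Tgfbr2 probe set that reached 200 gave 0.49. The co-receptor Tgfbr3, betaglycan, had 659.4 to 3080 in the osteosarcomas, against 4806 in mc3T3, a difference of -1.59 ± 0.64 (adjusted p = 0.117). The type II BMP receptor Bmpr2 had 3028 to 5814 in the osteosarcomas, against 3919 in mc3T3, a difference of 0.03 ± 0.32 (adjusted p = 0.969), and Bmpr1a, Acvr1 and Acvr2a had differences between -0.47 and 0.20. The type II activin receptor Acvr2b and the type I BMP receptor Bmpr1b were not tested, with at most 176.6 and 77.0 in the osteosarcomas, against 130.2 and 21.4 in mc3T3.

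The Smads and their ubiquitin ligases had differences between -0.81 and 1.31, none called. The receptor-activated Smad1, Smad2, Smad3 and Smad5 lay between -0.13 and 0.43. Smad4, the shared partner, had 3788 to 9740 in the osteosarcomas, against 2369 in mc3T3, with a difference of 1.31 ± 0.45 (adjusted p = 0.0692, and 0.0494 without osteosarcoma 4). Its other probe sets gave 0.43 and 1.00. The inhibitory Smad6 had 579.9 to 2143 in the osteosarcomas, against 1470 in mc3T3, and Smad7 had 262.7 to 653.4 in the osteosarcomas, against 622.2 in mc3T3. Both mc3T3 signals lay inside the osteosarcoma range, with differences of -0.42 ± 0.60 and -0.65 ± 0.42 (adjusted p = 0.7 and 0.342). The ubiquitin ligases Smurf1 and Smurf2, which mark Smads and receptors for degradation, had -0.81 ± 0.44 and -0.02.

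Id proteins are helix-loop-helix proteins that block differentiation factors. Id1 had signals of 395.9 to 1420 in the osteosarcomas (median 609.4), against 814.2 in mc3T3, within their range, and the difference was -0.31 ± 0.55 (adjusted p = 0.762). Id3 had 8924 to 14027 in the osteosarcomas (median 10629), against 6627 in mc3T3. All 12 osteosarcomas were above mc3T3, with a difference of 0.70 ± 0.27, which was not called (adjusted p = 0.102). Id2 had a difference of -0.97 ± 0.60 (adjusted p = 0.319). Id4 had 51.4 to 1614 in the osteosarcomas (median 336.6), against 4798 in mc3T3. All 12 lay below mc3T3, yet the spread among them left the difference of -3.94 ± 1.27 short of the threshold (adjusted p = 0.0545). Without osteosarcoma 7, the highest, the adjusted p was 0.0233, and without osteosarcoma 12 it was 0.0438. Id4 passed under 6 of 24 alternatives in all and missed under the rest. Its other probe sets gave -3.22 and -4.18. Tgfbi, a matrix protein named for its induction by TGF-beta, had 3103 to 15643 in the osteosarcomas (median 5986), against 2736 in mc3T3. All 12 were above mc3T3, yet the difference of 1.20 ± 0.79 was not called (adjusted p = 0.351), and 4 of 4 Tgfbi probe sets were positive.

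Another 70 genes of the pathway were counted for comparison: 9 had no probe set named, 17 stayed under 200 and 44 were tested. In the osteosarcomas, 9 rose and 4 fell against mc3T3 (29.5% called, against 13.2% of all genes). The known targets held 5 of these 13 calls among 9 tested. Ccn2, a matricellular TGF-beta target, had signals of 3460 to 18971 in the osteosarcomas (median 6619), against 419.3 in mc3T3, a difference of 3.94 ± 0.68 (adjusted p = 0.00132). Hey1, a Notch and BMP target, had 297.8 to 1048 in the osteosarcomas (median 736.9), against 12.6 in mc3T3, a difference of 3.92 ± 0.61 (adjusted p = 0.000535). In both genes all 12 osteosarcomas lay above mc3T3. Atoh8, a transcription factor induced by BMP signalling, had 11.6 to 229.3 in the osteosarcomas (median 61.6), against 1480 in mc3T3, a difference of -4.07 ± 0.92 (adjusted p = 0.0086). Targets thus stood on both sides.

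Outside the targets, the BMP-binding antagonist Chrdl1 had 20.1 to 620.3 in the osteosarcomas (median 65.7), against 3675 in mc3T3, a difference of -5.06 ± 0.93 (adjusted p = 0.00203). Nrros, which anchors latent TGF-beta on macrophages and microglia, had 349.4 to 1312 in the osteosarcomas (median 883.0), against 4.5 in mc3T3, a difference of 4.60 ± 0.57 (adjusted p = 8.4e-05). The macrophage marker sums ran the same way, as given above, and their part in the Nrros difference was not tested. Amhr2, the receptor of anti-Müllerian hormone, had 131.6 to 3085 in the osteosarcomas (median 952.8), against 7.0 in mc3T3, a difference of 4.76 ± 1.21 (adjusted p = 0.0166). Its probe set is of a kind that can also bind other transcripts, so this signal is uncertain.

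The second comparison sets the tumour labelled rhabdomyosarcoma against the osteosarcomas. It had less Bmp8a, Smad6 and Id3 than any osteosarcoma, and limma called 0 of the 41 genes higher, with 4 higher at an unadjusted p under 0.05. These 3 are 7.32% of the 41, against 2.94% of all genes called in either direction and 1.76% called lower. The share called higher was 1.18% over all genes. The median difference was -0.04 for the 41 genes and 0.05 over all genes. The tumour lay outside the osteosarcoma range for 19 of 41 genes (46.3%), against 30.7% of all genes, and below the range for 14 of them, where 14.1% of all genes were. Besides the 3 called genes, those below every osteosarcoma were Bmp4, Inhbb, Tgfb1, Tgfb2, Bmp1, Bambi, Tgfbr1, Bmpr2, Smad4, Smad7 and Smurf2, with differences of -2.74 to -0.42. On other probe sets that reached 200, the tumour lay inside the osteosarcoma range for Inhbb, Tgfbr1, Bmpr2, Smad4, Smad7 and Smurf2, while those of Tgfb2 and Bmp1 also placed it below. The 3 called genes and Bmp4 and Bambi have 1 probe set each.

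The promoters of these 3 genes, and of Bmp4 as the ligand with the largest difference from mc3T3, are shown because Smad6 and Id3 are known to be transcribed in response to Smads. Each is a 300-base window of RefSeq (GRCm38.p6), from 250 bases before to 50 bases after the gene start for Id3, Bmp8a and Bmp4. The Smad6 window begins nearer to the outermost end of that gene and reaches further into it. The windows are chr4:136143572-136143871 on the plus strand for Id3, chr9:64022010-64022309 on the minus strand for Smad6, chr4:123343203-123343502 on the minus strand for Bmp8a and chr14:46390620-46390919 on the minus strand for Bmp4. Capitals mark 3 motifs searched on both strands: CAGAC, whose reverse complement is GTCTG, the palindrome GTCTAGAC, and the palindrome GGCGCC. GTCTAGAC does not contain CAGAC or GTCTG, though its ends can overlap either.
Id3: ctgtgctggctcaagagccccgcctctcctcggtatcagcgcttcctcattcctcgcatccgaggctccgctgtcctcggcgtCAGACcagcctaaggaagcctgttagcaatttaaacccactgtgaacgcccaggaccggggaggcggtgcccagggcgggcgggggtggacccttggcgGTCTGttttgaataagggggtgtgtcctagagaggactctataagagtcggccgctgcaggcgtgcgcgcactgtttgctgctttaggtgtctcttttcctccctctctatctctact
Smad6: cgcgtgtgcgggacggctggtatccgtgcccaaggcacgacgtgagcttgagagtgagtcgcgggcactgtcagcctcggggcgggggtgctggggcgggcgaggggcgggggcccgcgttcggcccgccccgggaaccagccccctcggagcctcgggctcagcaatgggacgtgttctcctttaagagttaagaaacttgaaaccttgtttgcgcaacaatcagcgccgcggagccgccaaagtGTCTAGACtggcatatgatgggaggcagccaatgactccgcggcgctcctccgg
Bmp8a: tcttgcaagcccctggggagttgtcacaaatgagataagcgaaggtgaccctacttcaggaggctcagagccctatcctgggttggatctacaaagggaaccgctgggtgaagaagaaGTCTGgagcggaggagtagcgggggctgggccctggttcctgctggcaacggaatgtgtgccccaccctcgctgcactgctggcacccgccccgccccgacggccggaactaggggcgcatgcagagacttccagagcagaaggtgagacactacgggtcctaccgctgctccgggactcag
Bmp4: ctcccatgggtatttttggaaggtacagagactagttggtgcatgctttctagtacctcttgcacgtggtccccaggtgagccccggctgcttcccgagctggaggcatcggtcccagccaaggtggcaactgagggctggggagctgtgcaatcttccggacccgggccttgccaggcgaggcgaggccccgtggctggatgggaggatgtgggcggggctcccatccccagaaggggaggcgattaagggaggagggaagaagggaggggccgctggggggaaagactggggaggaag
The Smad6 window held GTCTAGAC starting at base 247, a motif found in 0.213% of 32851 promoter windows and in 1 of the 34 of 48 pathway genes that have a window. The Id3 window held CAGAC at 2 places and the Bmp8a window at 1. That motif is common: it stood in 49.6% of all windows and in 21 of the 34. GGCGCC stood in none of the 4 printed windows, in 11.9% of all windows and in 11 of the 34. A match describes letters only and is not evidence of a bound site.

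Smad6, which blocks BMP receptor signalling and is itself induced by it, had a signal of 94.2 in the tumour labelled rhabdomyosarcoma, against 579.9 to 2143 in the osteosarcomas (median 1196). The tumour lay below all 12, at a signal that cannot be told from background, and the difference was -3.18 ± 0.60 (adjusted p = 0.00986). Id3 had 2803 in the tumour labelled rhabdomyosarcoma, against 8924 to 14027 in the osteosarcomas (median 10629). The osteosarcomas lay close together here, and the difference was -1.93 ± 0.27 (adjusted p = 0.000966). Bmp8a had 16.2 in the tumour labelled rhabdomyosarcoma, a lone array, against 354.4 to 1328 in the osteosarcomas (median 536.9). That tumour's Bmp8a signal, like its Smad6 signal, cannot be told from background, so the size of the difference is uncertain. The groups did not overlap, and the difference was -3.77 ± 0.57 (adjusted p = 0.00178).

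The other Smads and Id genes gave no call. Id1, often read beside Id3 as a BMP target, had 753.1 in the tumour labelled rhabdomyosarcoma, against a median of 609.4 in the osteosarcomas, a difference of 0.20 ± 0.55 (adjusted p = 0.899). Smad7 had 225.7 in the tumour labelled rhabdomyosarcoma, against 262.7 to 653.4 in the osteosarcomas, a difference of -0.70 ± 0.42 (adjusted p = 0.456). Smad1, Smad2, Smad3 and Smad5 in the tumour labelled rhabdomyosarcoma all lay inside the osteosarcoma range.

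Beyond these, Inhbb and Bambi came closest to a call. Inhbb, the activin beta B subunit, had 166.4 in the tumour labelled rhabdomyosarcoma, against 529.4 to 3565 in the osteosarcomas (median 1098), a difference of -2.55 ± 0.67 (adjusted p = 0.0579). Bambi had 427.4 in the tumour labelled rhabdomyosarcoma, against 1030 to 6956 in the osteosarcomas (median 3371), a difference of -2.74 ± 0.81 (adjusted p = 0.0928). In both genes the tumour lay below all 12 osteosarcomas on these probe sets. A second Inhbb probe set gave another picture: the tumour labelled rhabdomyosarcoma, at 237.4, lay inside the osteosarcoma range of 200.5 to 649.1, with a difference of -0.45. The adjusted p of Inhbb was 0.0352 without osteosarcoma 4, 0.0432 without osteosarcoma 6 and 0.0213 without osteosarcoma 10, and that of Bambi was 0.0435 without osteosarcoma 4. Gdf10, Ltbp2, Tgfbr3, Acvr2a and Smurf1 were above every osteosarcoma, with differences of 0.82 to 2.33, none called. They are 5 of the 41 genes, while 16.6% of all genes lay above the osteosarcoma range.

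Bone cell markers moved with this comparison. The summed signal of 8 osteoblast markers was 44371 in the tumour labelled rhabdomyosarcoma, against 147502 to 215149 in the osteosarcomas, and 6 of the 8 were under 200 in it. The osteoclast sums, 3250 in the tumour labelled rhabdomyosarcoma against at least 86543 in the osteosarcomas, ran the same way. So did the adipocyte sums, 2987 in the tumour labelled rhabdomyosarcoma against at least 16634 in the osteosarcomas. The part of any of these in the Bmp8a, Smad6 and Id3 differences was not tested. The endothelial sum of the tumour labelled rhabdomyosarcoma, 8922, lay inside the osteosarcoma range. Of the 44 other pathway genes tested, 3 were called (6.82%, against 2.94% of all genes). Dlx5, an osteoblast transcription factor and BMP target, had 34.9 in the tumour labelled rhabdomyosarcoma, against 699.6 to 2333 in the osteosarcomas, a difference of -4.10 ± 0.51 (adjusted p = 0.000367). Amhr2, with the same doubt as above, had -4.88 ± 1.21 (adjusted p = 0.0429). Tgif1, a Smad2 corepressor, was the gene called higher, with 1900 in the tumour labelled rhabdomyosarcoma against 489.5 to 968.9 in the osteosarcomas, a difference of 1.37 ± 0.34 (adjusted p = 0.045).

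The pathway genes differed in how much they varied among the 12 osteosarcomas. On the log2(signal + 30) scale their median SD was 0.59, against 0.43 over all genes tested, and 30 of 41 lay above that value. By role, the median SD was 0.84 for antagonists and binding proteins, 0.72 for BMP and GDF ligands, 0.44 for Smads and 0.36 for receptors. The least variable was Id3, with an SD of 0.18, at percentile 1.4 of all genes, and a highest signal 1.57-fold its lowest. Bmpr2 followed with 0.27, at percentile 12.8.

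The 5 most variable genes were Bmp5, Inhba, Id4, Ltbp2 and Fst. Bmp5, a BMP of cartilage and skeletal patterning, had an SD of 1.87, at percentile 99.4. Its signal was 5.9 in osteosarcoma 7 and 37.8 in osteosarcoma 3, and 471.5 to 2377 in the other 10. The tumour labelled rhabdomyosarcoma had 32.5 and mc3T3 had 30.1, both near the low osteosarcomas. On all 3 Bmp5 probe sets, osteosarcomas 3 and 7 were the lowest 2 of the 12. One of the other probe sets did not set them apart, with 52.5 and 51.3 against 58.2 in osteosarcoma 6. Inhba, the activin beta A subunit, had an SD of 1.41, at percentile 98.0: osteosarcoma 11 had 3634 and osteosarcoma 5 had 1545, against a median of 310.4 and a lowest of 105.1 in osteosarcoma 12. The tumour labelled rhabdomyosarcoma, at 471.9, and mc3T3, at 519.6, fell inside that range.

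Id4 had an SD of 1.39, at percentile 97.8, with 1614 in osteosarcoma 7 and 929.4 in osteosarcoma 12 at the top and 51.4, 62.9 and 63.5 in osteosarcomas 1, 5 and 11 at the bottom. Ltbp2 had an SD of 1.05, with 981.1 in osteosarcoma 1 and 91.2 in osteosarcoma 10 as its ends. Fst had an SD of 0.97, with 1254 in osteosarcoma 5 and 89.8 in osteosarcoma 7. Osteosarcoma 7 was thus lowest for Bmp5 and Fst and highest for Id4, and with 93.7 it was next to lowest for Ltbp2. Counted over all 41 genes, osteosarcoma 4 was lowest for 10, osteosarcoma 12 highest for 8 and osteosarcoma 7 highest for 6. The same counts were not made over all genes tested, so they cannot be read as a trait of the pathway genes. The beta-actin ratio was 1.85 in osteosarcoma 4, 2.13 in osteosarcoma 12 and 1.44 in osteosarcoma 7. The part of RNA quality in these counts was not tested.

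**Figure D4:**
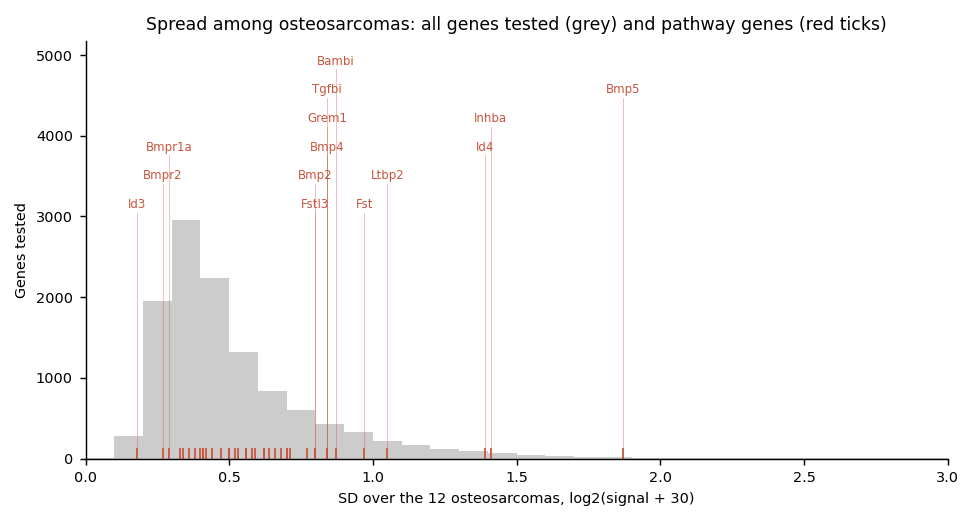
Standard deviation over the 12 osteosarcomas on the log2(signal + 30) scale (horizontal axis) against the number of genes (vertical axis), for all 11790 genes tested (grey bars) and the 41 pathway genes (red ticks, the most and least variable named). Id3 lies at 0.18 and Bmp5 at 1.87, with a median of 0.59 for the pathway genes.

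Relations across the 12 osteosarcomas were computed for 19 pairs from a list of 22. The pairs with Bmp3 and with Nog could not be run. The list was made with earlier results of these data known, which the p-values do not allow for. The pairs asked whether ligands ran with targets or antagonists, and whether genes ran with the mean level of a cell type's markers. No pair of 2 pathway genes passed. Bmp4 and Id1 had r = 0.43 (permutation p = 0.16, adjusted 0.608; rho = 0.27, p = 0.406, adjusted 0.858; r = 0.44 without osteosarcomas 8 and 10). Id1 and Id3, both BMP targets, had r = 0.21 (permutation p = 0.516, adjusted 0.873; rho = 0.18, p = 0.574, adjusted 0.858; r = -0.13 without osteosarcomas 5 and 11). Inhba and its antagonist Fst had r = 0.51 (permutation p = 0.0932, adjusted 0.608; rho = 0.31, p = 0.32, adjusted 0.858). That value rested on osteosarcomas 5 and 11, since r was -0.08 without them. Id1, Id3, Smad6 and Bmpr2 had r between -0.15 and -0.05 with the endothelial markers, and Bmp5 had -0.10 with the skeletal muscle markers (rho of -0.27 to 0.17; permutation p of at least 0.403, adjusted at least 0.858). The remaining 9 pairs had r of -0.33 to 0.45 and rho of -0.31 to 0.44, none passing (adjusted p of at least 0.608).

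Tgfbi was higher in osteosarcomas with a higher mean of the macrophage list: r = 0.82 (permutation p = 0.00206, adjusted 0.0391) and rho = 0.80 (p = 0.00299, adjusted 0.0284), with r = 0.85 without osteosarcomas 7 and 11. The listed markers did not all move alike. Osteosarcomas 2 and 1, which had the highest Tgfbi, had the highest C1qa (19858 and 16452) but the lowest Cd68 (7551 and 7724). Relations with single markers were not tested. Among the 6 osteosarcomas whose identifiers begin with m, r was 0.75 (exact permutation p = 0.0889, unadjusted) and rho was 0.71 (exact permutation p = 0.136, unadjusted). Leaving out 1 of 9 osteosarcomas (1, 2, 4, 5, 6, 7, 8, 9 or 10) took the adjusted p over the threshold, to between 0.0551 and 0.127, with r of 0.78 to 0.82. The Tgfbi relation passed under 6 of 17 alternatives for r and 5 of 17 for rho. With quantile normalization the adjusted permutation p was 0.0169 for r and 0.11 for rho. Inhba ran against the osteoclast markers in rank only: rho = -0.80 (permutation p = 0.00293, adjusted 0.0284) and r = -0.45 (p = 0.137, adjusted 0.608), with r = -0.72 without osteosarcomas 1 and 2. Among the m osteosarcomas r was -0.89 (exact permutation p = 0.0111, unadjusted) and rho was -0.94 (exact permutation p = 0.0167, unadjusted). Values within the m osteosarcomas were computed only for the Tgfbi and Inhba pairs, which stood out over the 12 osteosarcomas. The 6 m osteosarcomas are among those 12, so these values are not independent support. The rank relation passed under 7 of 17 alternatives. Leaving out osteosarcoma 1, 4, 6, 7, 8, 9, 10 or 12 took its adjusted p over the threshold, to between 0.0521 and 0.121, and quantile normalization to 0.11. Without osteosarcomas 6 and 9 together, its rho was -0.71 (adjusted permutation p = 0.259).

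**Figure D5:**
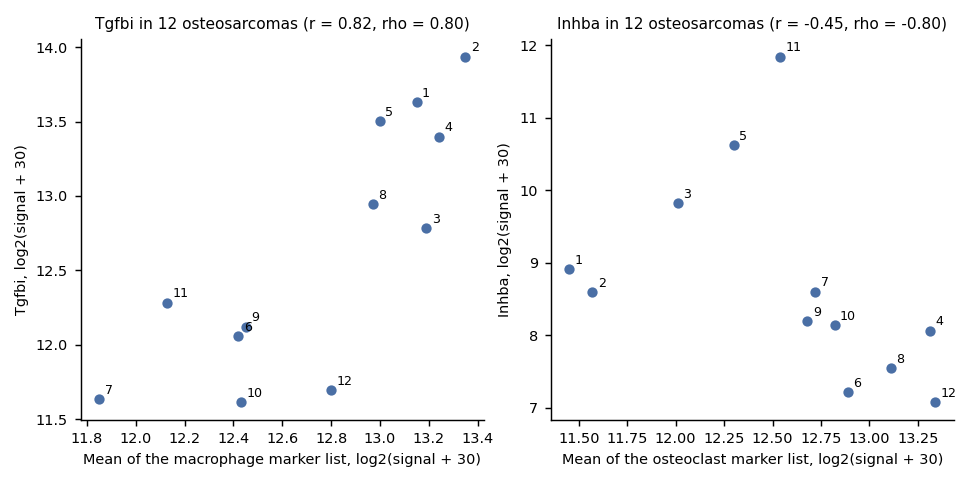
Tgfbi against the mean macrophage marker level (left) and Inhba against the mean osteoclast marker level (right), both axes as log2(signal + 30), in 12 osteosarcomas marked by number. Tgfbi and the macrophage level have r = 0.82 over 12 osteosarcomas, and osteosarcoma 11 carries the highest Inhba.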

How the data were processed

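Biotin-labelled total RNA was hybridised to 14 arrays, per the labels' protocols. As values, the authors deposited a linear intensity for each of 45101 probe sets, made with GCOS, per the submitters' processing notes. Software version, background step and probe summary were not given in the sources used here. Detection calls were not used. With 2% of probe sets trimmed at either end, each array had a mean of 500.0, the mark of scaling to 1 target by the authors. The number of arrays limits the precision. The highest correlation between 2 arrays was 0.953 on the log2 scale, so all were kept. Groups came from titles. The labels give no replicate numbers, and osteosarcomas carry numbers in accession order as names only.

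GEO's platform annotation gave the symbols, with 34741 probe sets updated by Entrez identifier; 34945 had 1 symbol, 932 several and 9160 were unnamed here. A gene was its brightest probe set over 14 arrays, tested where it reached 200 on at least 1 array. Values were log2(signal + 30). Differences were fitted with limma 3.58.1 under R 4.3.3 (lmFit, then eBayes, 3 groups, 11 residual and 3.56 prior degrees of freedom), two-sided, with Benjamini-Hochberg adjustment over 11790 genes. The fit was tested on simulated data whose lone array varied as an osteosarcoma does, so that assumption was not tested. Correlations used 100000 permutations, two-sided, adjusted over 19 pairs, or all orders for 6 osteosarcomas.

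The members, lists and pairs were chosen with earlier results of these data known. Values are given for each member called in either comparison, the 5 with the largest SD among the osteosarcomas and those in the pairs, and other pathway genes are named where called, at most 6 per comparison by size. Motif matches were counted in RefSeq windows of GRCm38.p6. Alternatives were other scalings, pseudocounts, filters, probe set rules, a variance trend, subsets of arrays and leaving out each osteosarcoma.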

Additional observations from a re-analysis of the deposited data

How the results depend on the processing

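Over 24 alternatives, 0 called differences reversed, and 43 of 1968 member values changed sign without a call. Of the pathway genes, 11 were called for osteosarcoma against mc3T3, 10 to 12 when 1 osteosarcoma was left out and 4 with only the 4 osteosarcomas whose identifiers begin with c, a setting with fewer samples. The other comparison called 3, and 3 to 5 when 1 osteosarcoma was left out. Over all genes tested, the c osteosarcomas alone gave 571 calls against mc3T3 in place of 1555, and 104 for the tumour labelled rhabdomyosarcoma in place of 347. Bmp2, Bmp4 and Bambi passed under every alternative run. Gdf10 missed the threshold under 10 of 24 (adjusted p of 0.0503 to 0.122) and Grem1 without osteosarcomas 6 and 9 (0.0503). With the c osteosarcomas alone, Grem1, Tgfb1, Tgfb3, Bmp8a, Fst, Ltbp2 and Tgfbr1 missed it too (0.064 to 0.292), as did Tgfb1 and Tgfb3 with the m osteosarcomas alone (0.0965 and 0.0586). For the tumour labelled rhabdomyosarcoma, Bmp8a and Id3 missed it with the c osteosarcomas alone (0.0737 and 0.0783) and Smad6 with the m osteosarcomas alone (0.0606). Bmp5, low in osteosarcomas 3 and 7, passed with the m osteosarcomas alone, in both comparisons (0.0155 for the tumour labelled rhabdomyosarcoma and 0.00456 for osteosarcoma against mc3T3). The 1 relation that passed, of Tgfbi with the macrophage markers, became 0 with the mean of probe sets (r = 0.79, adjusted p = 0.0614) and without osteosarcomas 6 and 9 (r = 0.80, adjusted p = 0.113), and 0 to 1 when 1 osteosarcoma was left out; the cause was not tested. Taking the brightest probe set among those reaching 200, a rule chosen after seeing the data, left the counts at 11 and 3. No paired analysis was possible because the labels give no replicate numbers shared between groups. Signals under 200 could not be told from background, which limits Gdf10, Grem1, Bmp2, Bmp5 and Bmp8a, and Smad6, Inhbb and Bmp4 in the tumour labelled rhabdomyosarcoma.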
